A study of Drosophila melanogaster with 7 samples.

Results

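Transcripts of 8 genes were followed across 7 single-cell libraries of Drosophila midgut tumors: svp, piwi, Amalgam (Ama), echinoid (ed), Megalin (mgl), scribbler (sbb) and the uncharacterized genes CG9021 and CG34232. They were chosen from earlier results on these data, by their level in each tumor and by their detection in the same cells as Delta or as dividing-cell transcripts, and they are 8 of the 17619 entries counted. Those levels and co-detections are therefore given as a description, without a test. The tumors came from flies of 1 genotype in a yw background. One set of chromosomes held the recombinase transgenes HS-flp and HS-mflp5, then esg-gal4 and UAS-flybow, and FRT82B with Tub-Gal80. The other set held HS-flp, UAS-RasV12 and an FRT82B chromosome with the alleles Apc2N175K and ApcQ8. A heat shock at 37 °C for 2 h, given 2 to 3 days after eclosion, induced recombined cells that keep only mutant copies of both Apc genes, and in which loss of Gal80 lets esg-gal4, active in intestinal progenitors, drive RasV12 and fluorescent proteins. At least 21 days later, flies were picked by the fluorescence seen through the abdomen, and whole tumors were dissected and digested with trypsin. Tgrp is 1 library that mixes 6 such tumors, while Tind1 to Tind6 are libraries of 1 tumor each. There was no library of a healthy gut, so no value below is a change caused by the tumor.

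The adult midgut is renewed by intestinal stem cells, which carry the Notch ligand Delta and the Snail-family factor escargot (esg) and divide to give enteroblasts and, from these, absorptive enterocytes. Of the 8 genes, svp encodes a nuclear receptor of the COUP-TF family, known from photoreceptor and neuroblast fates. piwi encodes an Argonaute protein that is loaded with piRNAs and silences transposons in the nucleus, chiefly in the gonad. Ama and ed encode cell-surface or secreted adhesion proteins with immunoglobulin domains, mgl encodes a large endocytic receptor of the LDL receptor family, and sbb encodes a transcriptional corepressor.

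The annotation of genome release 6 places svp on 3R, 12258737 to 12302785, and Ama on 3R, 6762593 to 6765261, both on the plus strand. On 2L, ed lies at 4031377 to 4115749 on the plus strand, piwi at 10982205 to 10987420 and CG9021 at 5903178 to 5904689, the last 2 on the minus strand. On the minus strand of 2R lie sbb, 18278198 to 18357296, and CG34232, 12164909 to 12165812, and on that of X lies mgl, 9358496 to 9500129. All 8 are protein-coding. Exons of svp overlap those of CG44037 on the same strand, so a molecule from the shared stretch could belong to either gene.

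After filters on genes per cell and mitochondrial transcripts (cells with 100 to 2000 genes and at most 15% mitochondrial UMIs), 7998 of 9914 deposited cells remained, 2922 in Tgrp and between 309 and 2065 in the individual tumors. A UMI (unique molecular identifier) marks 1 captured transcript. The kept cells held 5133789 UMIs in Tgrp and between 180582 in Tind3 and 4855339 in Tind1, and the median kept cell held between 317 UMIs in Tind3 and 2384 in Tind4. Since deeper cells show more genes, cells were classed after 300 UMIs had been drawn at random from each (thinning), or were compared at full depth within 10 bins of depth in each library. Tind4 and Tind5 shared 116 deposited cell barcodes, against at most 3 in the 20 other pairs of libraries, and 99 kept Tind5 cells carried such a barcode. All 16 stem cell and enteroblast markers were detected, with a summed level of 2493 CPM (UMIs per 1000000 UMIs of kept cells) in Tgrp and 2348 to 3172 CPM in the 6 tumors. The enterocyte markers summed to 1708 CPM in Tgrp and 705 to 2009 CPM in the tumors. The germline and gonad soma markers reached at most 38.8 CPM in a tumor, with osk, tj and aly at 0. In a dissected tumor, fewer cells with a gene and less of its RNA per cell cannot be told apart from a library's level alone.

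The levels of the members differed most for svp, which was almost a gene of 1 library. svp had 69.3 CPM in Tgrp, against 0.412, 0, 5.54, 0, 10.9 and 0 CPM in Tind1 to Tind6. In Tgrp, 356 svp UMIs lay in 241 of 2922 cells (8.25%), against 9 UMIs in 6 of 5076 cells (0.118%) in the 6 individual tumors. Of these 241 cells, 165 held 1 svp UMI and 2 held 5. The 3 tumors at 0 allow up to 2.47 CPM in Tind2, 1.35 CPM in Tind4 and 13.2 CPM in Tind6, which are the limits set by 3 counts. In Tind5, 6 svp UMIs came from 3 cells, none of which carried a barcode shared with Tind4. Among 5937 ranked genes, the log2 ratio of Tgrp to the pooled individual tumors of 6.06 was the second highest for svp. Tgrp is 1 library without a replicate, so this ratio has no test.

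piwi had 26.9 CPM in Tgrp, against 16.7, 3.29, 16.6, 32.5, 10.9 and 65.8 CPM in Tind1 to Tind6. Tind6 was the highest and Tind2 the lowest of the individual tumors, 20.0-fold apart, and Tgrp lay among them. Of 28 listed piRNA pathway genes, piwi included, 27 had a UMI and armi had none, and aub and AGO3, the other piRNA-binding Argonautes, averaged 8.84 and 11.5 CPM over the 6 tumors.

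Ama had 36.4 CPM in Tgrp, against 20.2, 14.0, 44.3, 28.0, 39.9 and 57.1 CPM in Tind1 to Tind6. ed had 47.7 CPM in Tgrp, against 18.7, 31.2, 44.3, 37.5, 41.7 and 26.3 CPM. For Ama Tgrp lay within the range of the tumors, and for ed slightly above it. mgl had 146 CPM in Tgrp, against 83.2, 347, 44.3, 59.6, 161 and 57.1 CPM, with Tind2 far above the other tumors. sbb, the most even member, had 372 CPM in Tgrp, against 350, 269, 177, 253, 252 and 255 CPM, so that its highest individual tumor stood 1.97-fold above its lowest.

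CG9021 was the one member lower in Tgrp than in the pooled individual tumors, with 32.9 CPM, against 172, 88.8, 5.54, 69.1, 39.9 and 154 CPM in Tind1 to Tind6. Its log2 ratio of Tgrp to the pooled tumors was −1.92, which put it at place 5908 of 5937. Its individual tumors were also the widest apart of those with UMIs in every tumor, 31.1-fold between Tind1 and Tind3, and Tind3 held a CG9021 level that rests on few UMIs. CG34232 had 222 CPM in Tgrp, against 127, 277, 338, 64.1, 290 and 114 CPM, where Tind4 was lowest and Tind3 highest.

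**Figure D1:**
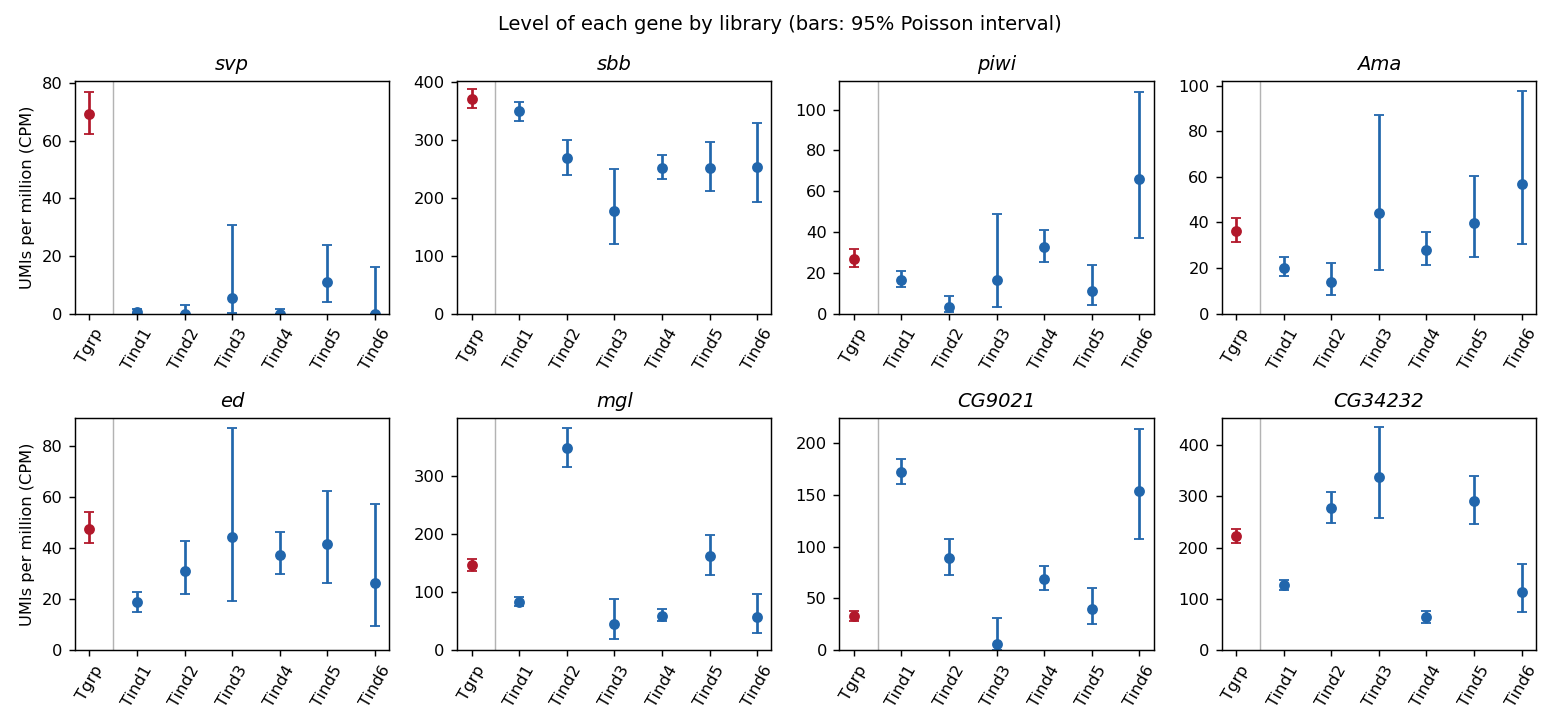
Level of each of the 8 genes in CPM (UMIs per 1000000 UMIs of kept cells, linear axes from 0) by library, Tgrp in red and Tind1 to Tind6 in blue, with exact 95% Poisson intervals that cover counting error only. svp stands at 69.3 CPM in Tgrp and at no more than 10.9 CPM in any individual tumor, while sbb lies between 177 and 372 CPM in all 7 libraries.

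The question of which cells carry these transcripts was first put to Delta. At full depth, with cells compared within bins of depth of the same tumor, Ama stood out: Delta-positive cells of the 6 tumors held 133 Ama UMIs, against 58.6 expected from their depth. The pooled ratio of Delta-positive to Delta-negative cells was 6.45, the highest of 5133 ranked genes. piwi followed with 110 UMIs against 57.4 expected, a ratio of 4.41 and place 5. By tumor, Ama had 51, 8, 0, 57, 6 and 11 UMIs in Delta-positive cells of Tind1 to Tind6, against 20.7, 1.73, 0.369, 28.2, 2.09 and 5.58 expected. It was above expectation in 5 of 6 tumors, and also in Tgrp, with 103 UMIs against 48.6 expected. piwi had 43, 1, 0, 58, 1 and 7 UMIs in Delta-positive cells, against 18.8, 0.325, 0.236, 31.2, 0.711 and 6.06 expected. Tind1 and Tind4 supplied nearly all of them, and Tgrp added 85 UMIs against 38.9 expected.

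The other members had lower ratios than Ama and piwi but still ranked high among the 5133 genes. In Delta-positive cells the pooled ratio was 2.39 for CG34232 (place 113), 2.21 for sbb (166), 2.20 for mgl (173), 2.03 for ed (278) and 1.95 for CG9021 (334). The log2 ratio of the median gene was 0.19. CG34232 exceeded its expectation in all 6 tumors, sbb and mgl in 5, CG9021 in 4 and ed in 3. svp had no UMI in Delta-positive cells of the individual tumors, where 1.16 were expected. The genes most like Ama and piwi in this measure were aurB (a mitotic kinase, pooled ratio 5.28), CG31145 (4.73), Pde6 (a phosphodiesterase, 4.55), Prip (an aquaporin, 4.19) and Ts (thymidylate synthase, 4.06).

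At equal depth, 154 of 4772 cells of the 6 tumors had a Delta UMI. Ama was seen in 3.90% of the Delta-positive and 0.671% of the Delta-negative cells, and piwi in 2.60% and 0.671%. For sbb the shares were 16.2% and 7.73%, for CG34232 9.74% and 4.16%, for mgl 7.14% and 3.23%, for CG9021 3.90% and 2.40%, and for ed 1.95% and 0.996%. These shares pool the tumors, which did not all go one way. The log2 ratio of UMI shares was above 0 in 5 of 6 tumors for Ama and CG34232, in 4 for sbb, mgl and CG9021, in 3 for ed and in 2 for piwi (mean −0.43). In Tind6, the tumor with the highest piwi level, piwi was in 0 of 30 Delta-positive and 9 of 243 Delta-negative cells. In Tgrp, mgl was in 3.77% of Delta-positive and 3.87% of Delta-negative cells and ed in 0.943% and 1.42%. Pooled over the 6 tumors, the ratio of UMI shares in those classes was 3.61 for Ama and 3.81 for piwi, and for piwi it was 2.22 without Tind4. As a mean over tumors this measure runs low, since 1 UMI was shared between classes before each log and Delta-positive classes were small: its median over all genes was −0.84 on the log2 scale. 1.85% of 4810 genes had a ratio above 0 in every tumor in Delta-positive cells.

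Dividing cells, those with a UMI of 35 DNA replication and mitosis genes after thinning, made up 1397 of the 4772 cells. Ama again led the members, with a pooled ratio of 2.35 between dividing and other cells and place 27 of 5137 genes, above 1 in all 6 tumors. piwi had a ratio of 1.98 (place 65, above 1 in 5 tumors) and CG9021 one of 1.87 (place 99, 5 tumors). mgl and sbb had 1.47 and 1.45 and were above 1 in all 6 tumors, ed had 1.21 and CG34232 1.18. For comparison, 8.77% of 4810 genes were above 0 on the log2 scale in every tumor. In cells, piwi was seen in 1.22% of dividing and 0.533% of other cells, Ama in 1.43% and 0.504%, and sbb in 9.74% and 7.29%. For CG9021 the shares were 3.94% and 1.84%, for ed 1.57% and 0.8%, and for CG34232 5.08% and 4.03%. The shares of mgl were nearly equal, 3.36% and 3.35%.

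Delta and division overlap, so the Delta comparison was repeated among cells without a dividing-cell UMI, which left 84 Delta-positive cells. The pooled ratios there were 6.82 for Ama, 4.73 for piwi, 2.91 for CG34232, 2.73 for ed, 2.48 for CG9021, 1.90 for sbb and 1.25 for mgl. The tumors were split. The log2 ratio was above 0 in 4 of 5 tumors for Ama and in 4 of 6 for CG9021 and sbb. It was above 0 in 3 of 6 for CG34232 and ed, and in 2 of 6 for piwi and mgl. The converse comparison, dividing against other cells among Delta-positive cells, gave 2.55 for mgl and 1.46 for sbb, both above 1 in 5 of 5 tumors. It gave 1.22 for piwi, 0.976 for CG9021, 0.765 for CG34232, 0.611 for Ama and 0.220 for ed. Ama, CG34232 and ed thus had a pooled ratio above 2 with Delta outside the cycle and below 1 with division among Delta-positive cells. The latter rests on 10 Ama and 2 ed UMIs in dividing cells, against 15 and 12 in other Delta-positive cells. CG34232 was above 0 there in 3 tumors and below 0 in 3. CG9021 had 2.48 and 0.976, the second of these near 1. mgl went the other way, with 1.25 and 2.55, but the 2.55 rests on 32 UMIs in dividing and 20 in other Delta-positive cells. Over all cells classed after thinning, the ratio of mgl with division, 1.47, was below its ratio with Delta, 1.81. The Delta-positive classes hold few cells, and the differences between members were not tested.

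**Figure D2:**
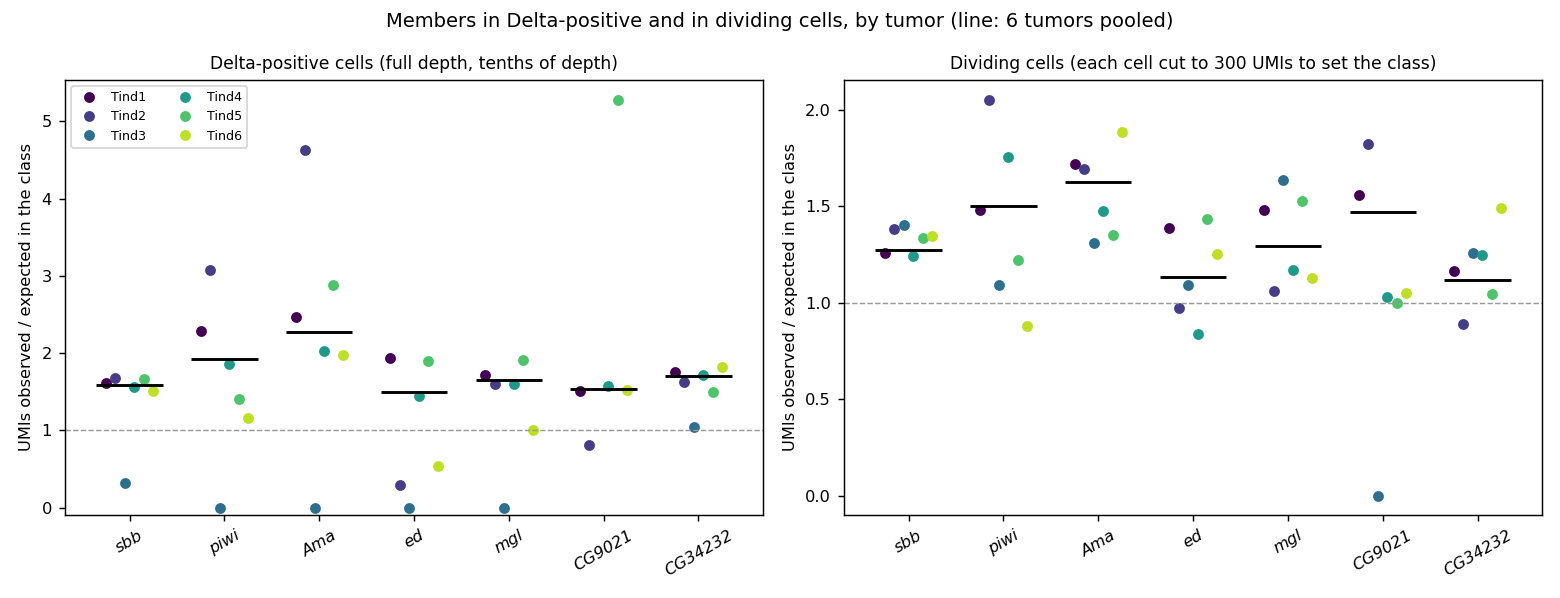
UMIs of each member observed in Delta-positive cells (left) and in dividing cells (right), divided by the number expected from the depth of those cells, 1 point per individual tumor, coloured by tumor, and the line at the value pooled over the 6 tumors; CG9021 has no Delta point for Tind3, where none was expected. Ama and piwi have the highest pooled values in Delta-positive cells, where 133 and 110 UMIs were seen against 58.6 and 57.4 expected.

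The members were then paired with each other, by counting cells of the 6 tumors with a UMI of both genes at full depth against the count expected within the bins of depth. Since the members were chosen for detection with Delta or dividing-cell transcripts, cells shared between members are not independent of that choice. The strongest pair was piwi and Ama, found together in 44 cells against 13.4 expected, a ratio of 3.29 with a 95% counting interval of 2.39 to 4.42. In Tgrp they shared 36 cells, against 12.3 expected. By tumor, 15, 1, 2, 22, 1 and 3 cells of Tind1 to Tind6 held both, against 6.09, 0.102, 0.0769, 5.43, 0.323 and 1.35 expected. All 7 libraries were above expectation, and Tind2, Tind3 and Tind5 rest on 1 or 2 cells.

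Other pairs were also above 1. For comparison, in UMIs at full depth, the median gene had a log2 pooled ratio between 0.08 in ed-positive and 0.21 in sbb-positive cells. A ratio slightly above 1 is thus common among genes. piwi met mgl in 68 cells against 34.0 expected and CG34232 in 63 against 33.2, while Ama met mgl in 78 against 41.4 and CG9021 in 54 against 28.8. ed was found with CG9021 in 55 cells against 30.2 expected, but with piwi in 15 against 13.4, a ratio of 1.12 whose interval of 0.626 to 1.85 includes 1. sbb, the most widely detected member, had ratios between 1.29 (with mgl and with CG34232) and 1.56 (with Ama). With Ras85D, whose RNA includes that of the RasV12 transgene if the transgene maps there, the 7 genes had ratios of 1.09 to 1.20, and with Ldh, lactate dehydrogenase, ratios of 0.68 to 0.87. In Tgrp piwi and CG9021 shared 23 cells, against 6.11 expected, a ratio of 3.76, compared with 1.69 in the individual tumors.

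**Figure D3:**
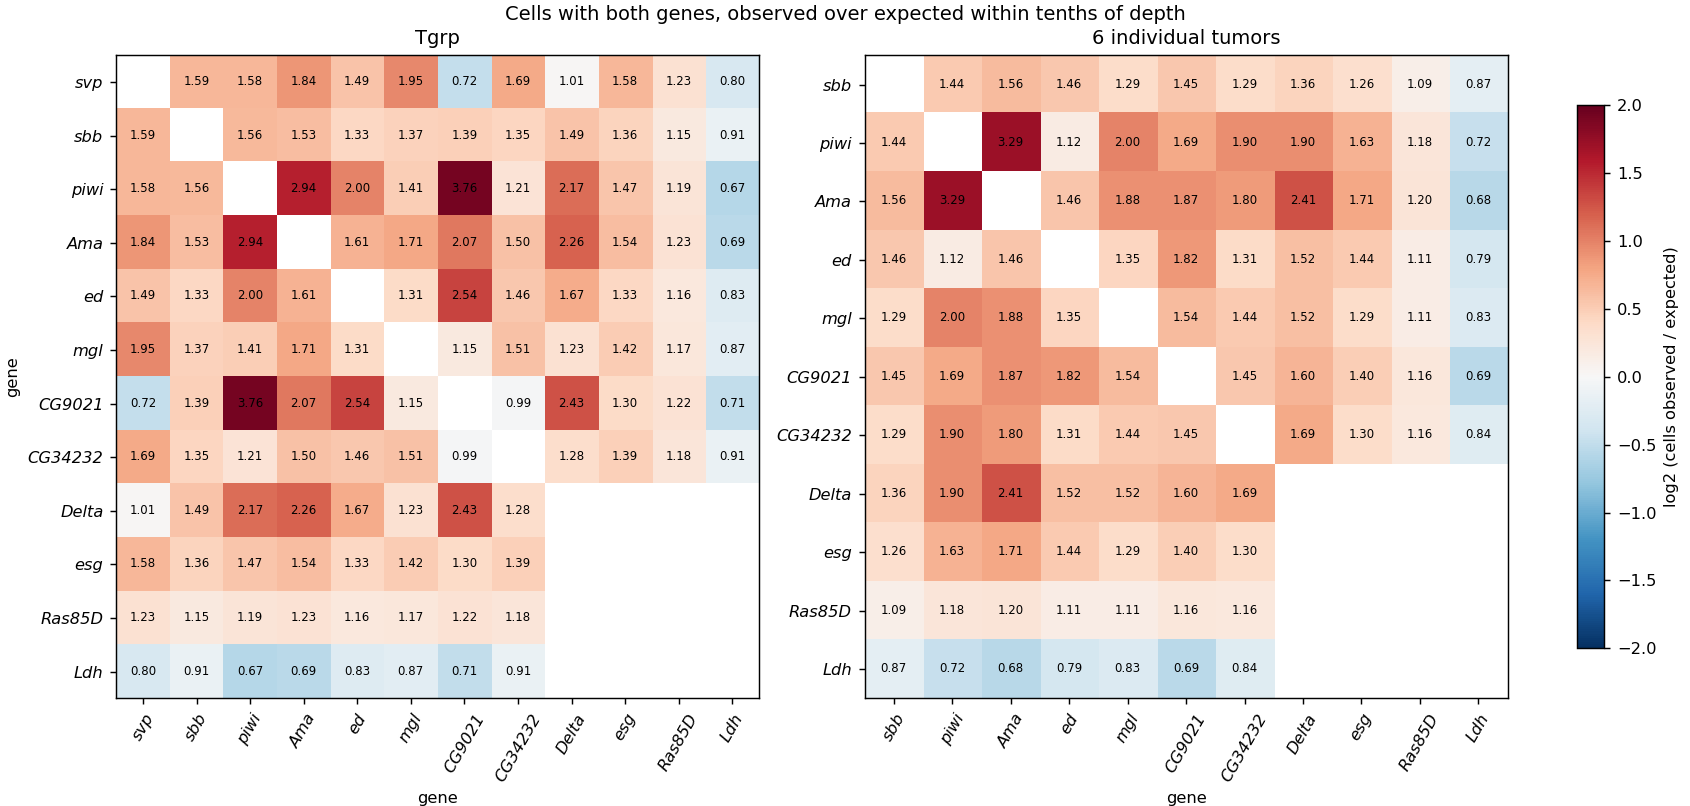
Cells with a UMI of both genes of a pair, divided by the number expected within 10 bins of depth (colour on a log2 scale), in Tgrp (left) and in the 6 individual tumors (right), with the members, Delta, esg, Ras85D and Ldh on the axes. piwi with Ama stands at 3.29 in the individual tumors, and Ldh is below 1 with each of the 7 members shown there.

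Few cells carried several members. At 300 UMIs, 111 of 4772 cells of the 6 tumors (2.33%) held at least 2 of the 7 members other than svp, 756 (15.8%) held 1 and 3905 (81.8%) held none. Of these groups, in the same order, 13.5%, 24.7% and 40.2% had an Ldh UMI, and 6.31%, 10.2% and 16.2% had an enterocyte-marker UMI. Dividing-cell transcripts went the other way, with 47.7%, 33.9% and 27.9%. Delta did not follow the number of members step by step, with 5.41%, 7.67% and 2.30%. In Tgrp the cells with at least 2, 1 and 0 members numbered 85, 512 and 2325, and an Ldh UMI was found in 4.71%, 20.3% and 25.7% of them. Cells are not replicates, and these shares were not tested.

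Ldh, which interconverts pyruvate and lactate, stands for the fermenting side of the metabolic contrast that the study drew. It was not itself used to choose the members, but Delta, which was, had a pooled ratio of 0.575 in Ldh-positive cells. That of esg was 0.585. The ratios of members chosen with Delta are therefore not independent of that choice. Ama, piwi, CG9021 and sbb were lower in Ldh-positive than in Ldh-negative cells of all 6 tumors. Ama had 5.93, 3.18, 0, 13.3, 20.3 and 54.8 CPM in Ldh-positive cells of Tind1 to Tind6, against 33.7, 17.7, 57.0, 34.4, 42.0 and 63.2 CPM in Ldh-negative cells. Within each tumor the Ldh-positive value was the lower, by little in Tind6. The mean log2 ratio was −1.73 ± 1.10 (SD, n = 6 tumors; exact two-sided sign-flip permutation test, p = 0.03125, the smallest p that 6 tumors can give). This p and the exact p below are not adjusted for the number of members, although such an adjustment was planned. sbb had 227, 153, 125, 187, 176 and 252 CPM in Ldh-positive cells, against 466, 309, 239, 282, 278 and 261 CPM in Ldh-negative cells. Its log2 ratio of −0.71 ± 0.37 was smaller but far more even over the tumors (exact p = 0.03125, n = 6).

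CG9021 had 63.5, 9.53, 0, 57.8, 0 and 109.5 CPM in Ldh-positive cells, against 274.8, 116, 11.4, 74.0, 57.7 and 190 CPM in Ldh-negative cells. Its mean log2 ratio was −2.19 ± 1.76 (exact p = 0.03125, n = 6), with a gap of only 1 UMI in Tind3. piwi had 7.20, 3.18, 0, 20.7, 6.78 and 32.9 CPM in Ldh-positive cells, against 25.7, 3.33, 34.2, 37.7, 13.1 and 94.8 CPM in Ldh-negative cells. Its log2 ratio was −1.24 ± 0.88 (exact p = 0.03125, n = 6), and in Tind2 the classes were nearly equal. The direction of piwi was lost in 1 or more tumors under 5 other settings and that of CG9021 under 3, whereas Ama and sbb stayed below 0 in every tumor under each setting tried.

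For mgl, ed and CG34232 the ratio was below 0 in 5 of 6 tumors and did not pass the test. The mean log2 ratios were −1.29 ± 1.27 for mgl (exact p = 0.0625), −0.92 ± 1.21 for ed (exact p = 0.15625) and −0.65 ± 0.58 for CG34232 (exact p = 0.09375; n = 6 each). Over all genes, 6.42% of 4810 were below 0 in every tumor in Ldh-positive cells, against 4 of the 7 members, a share not independent of how they were chosen. The pooled ratios were 0.272 for Ama and for CG9021 and 0.379 for piwi, while the median gene stood at −0.13 on the log2 scale. In Tgrp the log2 ratios of Ldh-positive to Ldh-negative cells were −2.07 for Ama, −1.83 for piwi, −1.27 for CG9021 and −0.73 for sbb.

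Cells with an enterocyte marker, a second measure not itself used to choose the members, held less sbb in every tumor. Delta was lower in these cells too (pooled ratio 0.558), as was esg (0.659). sbb had 316, 193, 0, 145, 134 and 143 CPM in enterocyte-marker cells of Tind1 to Tind6, against 356, 276, 239, 290, 271 and 279 CPM in the other cells. The log2 ratio was −1.46 ± 1.83 (exact p = 0.03125, n = 6), with a shortfall that was slight in Tind1 and rests on 0 UMIs in Tind3. The other 6 genes did not pass, with mean log2 ratios between −1.60 for CG9021 (exact p = 0.09375) and −0.14 for mgl (exact p = 0.6875; n = 6 tumors). 4.55% of 4810 genes were below 0 in every tumor in this comparison, and sbb was not below 0 in every tumor at 600 UMIs (mean −1.51) or under a 30% mitochondrial limit (−0.65).

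The third such measure was esg in cells with neither Delta nor dividing-cell transcripts. No member passed there, with exact p between 0.09375 for CG34232 and 1 for sbb and ed over the 6 tumors (5 for Ama). Over all genes, 1.36% of 4261 were above 0 in every tumor in this comparison. The pooled ratios of esg-positive to esg-negative cells were all above 1, from 1.56 for sbb to 3.72 for Ama, but the tumors were split, with piwi and CG9021 above 0 in 3 and below 0 in 3. Tind3 and Tind6 gave 3 and 4 esg-positive cells to this class.

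**Figure D4:**
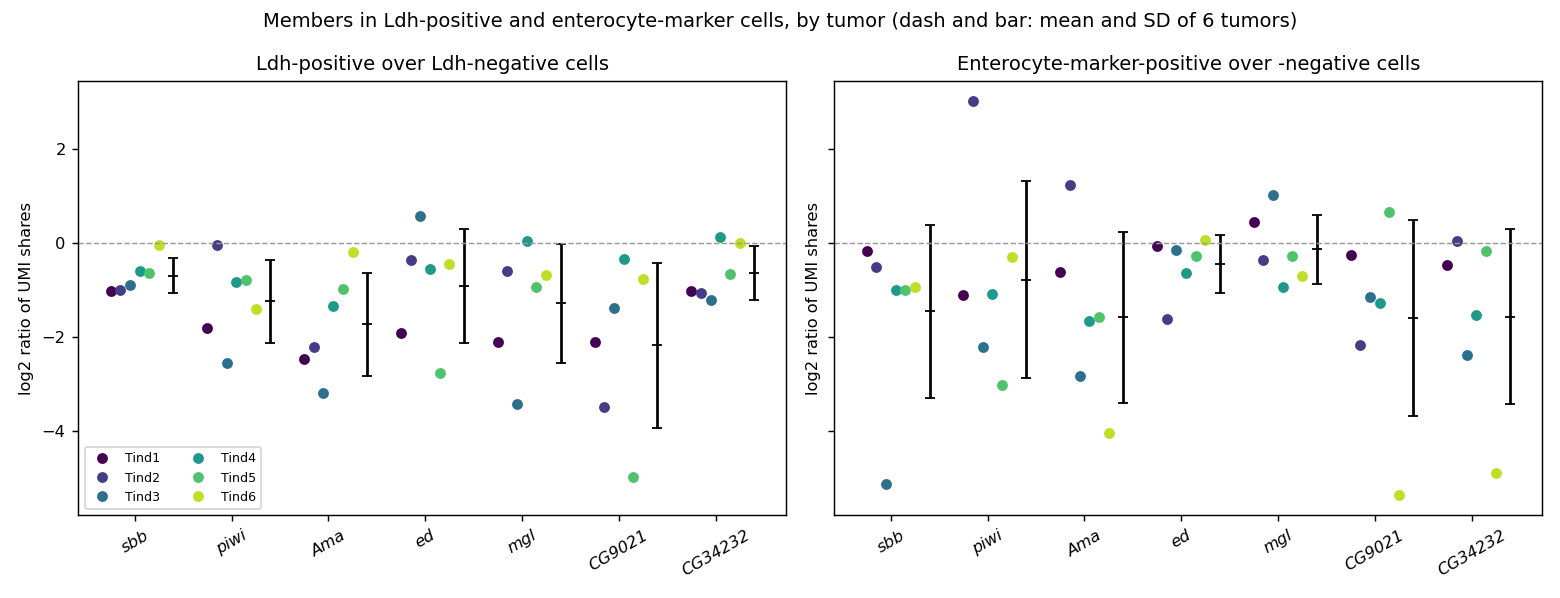
Log2 ratio of each member's UMI share, Ldh-positive over Ldh-negative cells (left) and enterocyte-marker over other cells (right), 1 point per tumor coloured by tumor, with the mean and SD over the 6 individual tumors. Ama, piwi, CG9021 and sbb lie below 0 in all 6 tumors in Ldh-positive cells, with means of −1.73, −1.24, −2.19 and −0.71.

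Only Tgrp held enough svp to class its cells. As a share of UMIs, svp was higher there in esg-positive and dividing cells and lower in enterocyte-marker and Ldh-positive cells. Delta-positive cells of Tgrp had 46.7 svp CPM and Delta-negative cells 70.3 CPM, a log2 ratio of −0.59 with a counting interval of −1.66 to 0.31. At full depth, svp and Delta shared 49 cells, against 48.3 expected (ratio 1.01, 0.750 to 1.34). An excess of svp in Delta-positive cells was therefore not seen. Among Tgrp cells with neither Delta nor dividing-cell transcripts, svp reached 135 CPM in the 97 esg-positive and 53.0 CPM in the 1964 esg-negative cells. Dividing cells had 101 CPM and other cells 57.0 CPM, enterocyte-marker cells 27.8 CPM and other cells 79.0 CPM, and Ldh-positive cells 41.9 CPM and Ldh-negative cells 78.8 CPM. At full depth, however, svp and dividing-cell transcripts shared 192 cells, against 177 expected (ratio 1.09, 0.937 to 1.25), an interval that includes 1. Among the members, svp stood highest with mgl, 117 shared cells against 59.8 expected, and lowest with CG9021, 8 against 11.2, where the counting interval of the ratio, 0.309 to 1.41, includes 1. These values compare cells of 1 library and carry no test between conditions.

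The 241 svp-positive cells of Tgrp were set against 723 svp-negative cells of nearest depth, with a median of 1869 and 1868 UMIs. Of 4894 genes with at least 30 UMIs, 3.06% were 2-fold or more higher and 6.42% 2-fold or more lower in svp-positive cells, and the median log2 ratio was 0.11. The largest ratios were those of Dtg, a Dpp target gene, with 43 UMIs in svp-positive and 13 in svp-negative cells (log2 3.22), and of Cadps, which primes dense-core vesicles for release, with 130 and 54 UMIs (2.81). Def, the antimicrobial peptide Defensin, had 43 and 20 UMIs (2.62), Tsp, thrombospondin, 115 and 78 (2.11), and sn, the actin bundler fascin, 154 and 110 (2.04). Fs (follistatin, 2.02), O-fut1 (the fucosyltransferase of Notch, 2.01), Klp3A (a kinesin, 1.97), Nepl21 (1.94) and cpo (an RNA-binding protein, 1.93) completed the 10 highest. Cadps was found in 29.5% of all svp-positive and 4.18% of all svp-negative cells of Tgrp, and Dtg in 12.9% and 0.970%.

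By lists of markers, svp-positive cells had fewer enterocyte transcripts and more mitosis and respiratory transcripts than svp-negative cells. Of 5 enterocyte markers with at least 30 UMIs, 4 were 2-fold or more lower, among them the smooth septate junction genes Ssk (log2 −1.83), mesh (−2.22) and Tsp2A (−2.40). Over all 4894 ranked genes, 2853 were above 0 and the median was 0.11. Of 15 stem cell and enteroblast markers 10 were above 0, a share close to that of all genes, 2 of them 2-fold or more higher, with a median of 0.51. klu, a zinc-finger factor of enteroblasts, stood at 1.43, the Notch-responsive genes E(spl)malpha-BFM and E(spl)mbeta-HLH at 1.39 and 0.92, and esg at 0.90. The listed markers not above 0 were Delta at −0.70 (−1.08 to −0.33), Pvr at −0.49, Egfr at −0.40, the enteroblast marker Su(H) at −0.02 and insc at −0.01. Of 22 mitosis genes 21 were above 0 (median 0.65), and of 57 nuclear respiratory genes 55 were above 0 (median 0.52). Of 83 cytosolic ribosomal protein genes 80 were above 0 as well, with a median of 0.15. No nuclear receptor of 8 was 2-fold changed, and 2 of 3 enteroendocrine markers were lower. Ldh stood at −1.12.

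Among the other members, mgl had 221 UMIs in svp-positive and 242 in svp-negative cells (log2 1.43), CG34232 318 and 366 (1.36), and Ama and sbb stood at 0.98 and 0.88. ed followed at 0.56. piwi, with 26 and 67 UMIs, had a log2 ratio of 0.19 whose interval of −0.52 to 0.87 includes 0, and CG9021 had 8 and 69 UMIs (−1.52). The members thus did not move as 1 group in svp-positive cells.

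The lowest genes in svp-positive cells included transcripts of very few cells: CG14645 had 1 UMI in svp-positive and 3341 in svp-negative cells, yet only 17 of all 2681 svp-negative cells of Tgrp held it. CG5506 had 0 and 771 UMIs, and was in 0 of 241 svp-positive cells, which allows a share of up to 1.52%, and in 41 of 2681 svp-negative cells (1.53%). Cda9 had 0 and 387 UMIs, and just 3 cells of Tgrp held it. The UMIs of so few cells bound no fold. roX1 and roX2, noncoding RNAs of the male dosage compensation complex, had 39 and 784 UMIs (log2 −2.76) and 8 and 206 UMIs (−3.09). roX1 was found in 4.98% of svp-positive and 19.9% of svp-negative cells. It stood at 310 CPM in Tgrp, against 1298, 0.822, 0, 1044, 102 and 1576 CPM in Tind1 to Tind6, so it differed mainly between tumors. Since the cells of Tgrp carry no tumor of origin, a gene of svp-positive cells and a gene of the tumors that held them cannot be told apart. Dtg, 15.2 CPM in Tgrp, had UMIs in only Tind2 (2) and Tind5 (10) among the individual tumors, and 1 of the 3 svp-positive cells of Tind5 held a Dtg UMI.

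**Figure D5:**
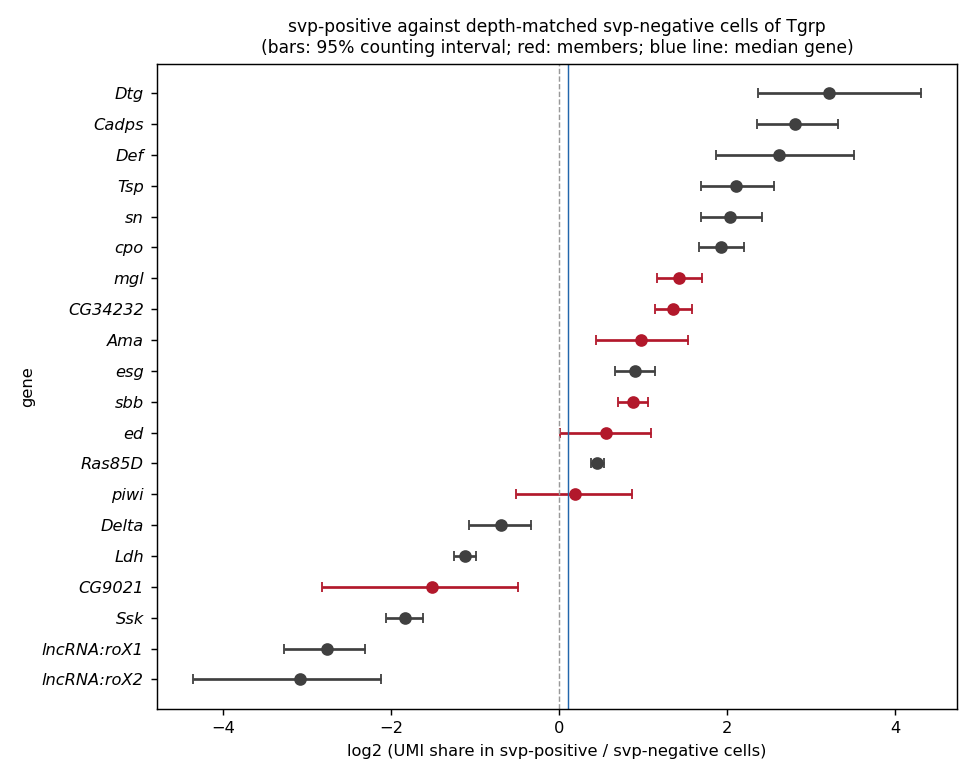
Log2 ratio of UMI shares in the 241 svp-positive over 723 depth-matched svp-negative cells of Tgrp, with 95% intervals that cover counting error only, members in red and the blue line at the median gene, 0.11. Dtg (3.22) and Cadps (2.81) are highest, mgl and CG34232 are the highest members, and Delta, Ldh, CG9021, the septate junction gene Ssk and both roX genes are below 0.

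Genes that accompany the other members were sought by summing UMIs per tumor and class and testing with edgeR (quasi-likelihood, tumor as a block, Benjamini-Hochberg adjustment over all genes tested). In piwi-positive cells, 1 to 12 per tumor after thinning, 10 genes rose and 130 fell of 1647 tested (0.607% and 7.89%). The median log2 fold change over all genes tested was −0.28, and that of 81 cytosolic ribosomal protein genes −0.52. HmgD, a high-mobility-group chromatin protein, had 520, 489, 5871, 864, 680 and 897 CPM in piwi-positive cells of Tind1 to Tind6, against 251, 163, 316, 210, 192 and 419 CPM in piwi-negative cells. It was higher in all 6 tumors, with a log2 fold change of 1.23 ± 0.35 (SE, adjusted p = 0.0097). The values of Tind2, Tind3 and Tind5 come from 1, 2 and 2 piwi-positive cells. Of 4 tested enterocyte markers 3 fell, namely Ssk (5 UMIs in piwi-positive and 6530 in piwi-negative cells, log2 −4.03, adjusted p = 1.23e-07), Tsp2A (1 and 1690) and mesh (0 and 981). stl, rdog, CG1582 and CG15422 were likewise at 0 UMIs in piwi-positive cells, under a floor of 35.5 CPM, with 856, 717, 704 and 593 UMIs in piwi-negative cells. Listericin, an antibacterial protein, had 1 and 3537 UMIs, and the nuclear receptor Eip75B 12 and 3616 UMIs (log2 −1.84, adjusted p = 0.00636). Ldh fell (log2 −1.57 ± 0.40, adjusted p = 0.00345), and its level was lower in 5 of 6 tumors.

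Using all 151 cells of the 6 tumors with a piwi UMI at full depth, each set against 3 negative cells of like depth, 38 genes rose and 68 fell of 558 tested (6.81% and 12.2%). HmgD led again, with 393 UMIs in piwi-positive and 397 in piwi-negative cells and a log2 fold change of 1.47 ± 0.22 (adjusted p = 8.25e-05, 6 of 6 tumors). Pgant6, which starts O-linked glycosylation, followed at 1.32, Non2 at 1.29, and the respiratory genes ox (not on the list used here), ATPsynE and ATPsynC at 0.90, 0.84 and 0.82. CNBP, the ribosome biogenesis gene Nop10, CG43658 and fabp rose by 0.82 to 0.88. Of 31 listed nuclear respiratory genes tested, 5 rose (ATPsynE, ATPsynC, COX5A, COX7C and ATPsynF), and 29 were above 0, with a median of 0.56 against 0.01 over all genes. Of 81 cytosolic ribosomal protein genes 1 rose and 1 fell (median −0.01). esg rose (0.96 ± 0.30, adjusted p = 0.0276, higher in 5 of 6 tumors). The heat-shock genes Hsp23 and Hsp26 fell most (log2 −2.35 and −2.23), with the ferritin chains Fer1HCH (−1.80) and Fer2LCH (−1.75) after them. Ldh fell by 1.18 ± 0.24 (adjusted p = 0.00148, 6 of 6 tumors). The 2 ways of classing piwi cells shared 49 lower genes, 37.7% of the 130 and 72.1% of the 68, and 4 higher genes, 40% of the 10 and 10.5% of the 38.

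In sbb-positive cells, 12 to 189 per tumor, 25 genes rose and 155 fell of 3184 tested (0.785% and 4.87%). Of 13 stem cell and enteroblast markers other than Delta, 2 rose: the EGF receptor gene Egfr (log2 1.05 ± 0.21, adjusted p = 9.37e-05) and zfh2 (0.91 ± 0.26, adjusted p = 0.0158), both higher in 5 of 6 tumors. The largest rises shared by all tumors were scramb2 (a scramblase, 0.83), smid (0.82), SdhA (a subunit of succinate dehydrogenase, 0.78), dUTPase (0.69) and CG43658 (0.55). Of 5 enterocyte markers 4 fell. Ssk had 324, 230, 0, 117, 74.0 and 80.2 CPM in sbb-positive cells of Tind1 to Tind6, against 563, 395, 827, 1431, 623 and 492 CPM in sbb-negative cells, a log2 fold change of −2.00 ± 0.20 (adjusted p = 8.83e-20). CG16995 (−2.28), CG9380 (−2.23) and CG12974 (−2.08) were lower still, and CG5011 had −1.93. Ldh had 2342, 1162, 1056, 1045, 1480 and 1765 CPM in sbb-positive cells, against 4489, 1701, 4003, 2160, 1604 and 3043 CPM in sbb-negative cells, and fell in every tumor (log2 −1.06 ± 0.14, adjusted p = 1.07e-11).

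mgl-positive cells, 2 to 86 per tumor, had 8 genes higher and 57 lower of 1983 tested (0.403% and 2.87%). The glutathione transferase GstD2 fell furthest among genes lower in every tumor (53 UMIs in mgl-positive and 18948 in mgl-negative cells, log2 −2.64, adjusted p = 9.44e-06), then CG7130 (−2.24), Argk1 (arginine kinase, −2.07), spz (the Toll ligand Spätzle, −2.06) and rdog (−2.04). No gene rose in all 6 tumors. The 5 tested enterocyte markers had a median log2 fold change of −0.76, with 1 above 0, and did not pass. Ldh had a log2 fold change of −1.21 ± 0.40 and was not called (adjusted p = 0.0581).

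CG34232-positive cells, 6 to 74 per tumor, had 6 genes higher and 93 lower of 2974 tested (0.202% and 3.13%). Listericin had 2 UMIs in CG34232-positive and 3536 in CG34232-negative cells (log2 −6.30, adjusted p = 2.07e-15), and AttD, the antibacterial attacin D, 0 and 182. MtnA, a metallothionein, fell (−3.02, adjusted p = 4.42e-14), with CG3868 (−5.29) and luna (−3.53). Of 5 enterocyte markers 3 fell, and Ldh fell by 1.11 ± 0.17 (adjusted p = 5.12e-09), lower in 5 of 6 tumors. CG9021-positive cells, 1 to 74 per tumor, had 3 genes higher and 79 lower of 2680 tested (0.112% and 2.95%). CG9380, CG12974 and lncRNA:CR43855 were at 0 UMIs in CG9021-positive cells, with 498, 410 and 381 UMIs in CG9021-negative cells, and Listericin had 13 and 3525 (log2 −3.49, adjusted p = 1.32e-06). Ldh had its largest log2 fall of the 5 comparisons there (log2 −2.53 ± 0.41, adjusted p = 7.27e-07, 6 of 6 tumors). Ras85D was called in none of the 5 comparisons at 300 UMIs, with adjusted p between 0.193 and 0.959.

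Across these 5 classes, whose cells and negatives overlap, 14 genes were lower in all, among them MtnA, MtnE, GstD2, GstD5, Fer2LCH, the ER chaperone Hsc70-3, the FGF ligand bnl and Listericin. A further 32 were lower in 4 classes, including Ldh, Ssk, Hsp23, Hsp26 and Fer1HCH. Acbp2, an acyl-CoA-binding protein, was the only gene higher in 3 (piwi, mgl and CG34232), and none was higher in more. ImpL2, a secreted antagonist of insulin-like peptides with immunoglobulin domains, was lower with piwi (log2 −1.35, adjusted p = 0.0222), CG34232 (−0.89, adjusted p = 0.00408) and CG9021 (−1.62, adjusted p = 0.00357). Fas3, an adhesion molecule of the same fold, was lower with piwi (−2.79, adjusted p = 0.0139) and sbb (−0.85, adjusted p = 0.0289). The numbers of called genes moved with single libraries and with the model. Without Tind4 47 genes were called for piwi and 78 for sbb, and without Tind1 89 for sbb, 21 for mgl, 29 for CG34232 and 22 for CG9021. Without Tind2 26 were called for mgl and 32 for CG9021, without Tind4 143 for CG9021, and without Tind6 60 for CG34232. Without the Tind5 cells that share a barcode with Tind4, 122 genes were called for piwi, 201 for sbb, 163 for mgl, 122 for CG34232 and 108 for CG9021.

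Each member was last set beside genes of its own pathway or family, as UMIs at full depth in cells with and without the member over the 6 tumors, without a test. With piwi, the piRNA pathway genes tej (9 UMIs against 3.32 expected), squ (12 against 4.01) and zuc (7 against 2.70) were above expectation, and AGO3 (9 against 5.07) and papi (16 against 11.0) were nearer to it. spn-E (7 against 15.5) and aub (2 against 4.08) were below it. In Tgrp the ratios were 1.91 for aub and 2.58 for papi, but 0.775 for AGO3 and 0.724 for spn-E. With sbb, the corepressor genes HDAC1, Smr and CoRest had pooled ratios of 2.61, 1.79 and 1.59, and ttk one of 0.966. With Ama, the adhesion genes rst, Nrt (neurotactin, the known partner of Amalgam), Fas2 and ed had ratios of 2.61, 2.11, 2.08 and 1.56, whereas ImpL2, Fas3 and Lac had 0.329, 0.166 and 0.115. In Tgrp, Nrt went the other way, with 5 UMIs against 8.26 expected and a ratio of 0.572, while Fas2 and ed had 1.64 and 2.20. With mgl, the LDL receptor family genes arr and LRP1 had ratios of 1.90 and 1.59, and LpR2 and Cubn 0.834 and 0.798.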

How the data were processed

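The authors aligned the reads of 7 Chromium 3′ libraries (chemistry v3.1) to the Drosophila genome r6.42 and called cells with Cell Ranger 6.0.1, per the submitters' processing notes, and deposited raw UMI counts, 1 matrix of genes by cells for each library. Symbols were found for 17556 of 17619 entries. Cells with 100 to 2000 genes and at most 15% mitochondrial UMIs were kept, and doublets were not removed. The members and all gene lists were chosen with earlier results of these data known.

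Cells were classed by a UMI of a gene or list after thinning to 300 UMIs (seed 1; cells below 300 UMIs left out, 181 in Tind3, 87 in Tind5 and 36 in Tind6), and the UMIs of both classes were compared at full depth within a tumor. CPM are UMIs per 1000000 UMIs of the cells named, with exact 95% Poisson or binomial intervals that cover counting error only, and the limit of a count of 0 is 3 counts. For log2 ratios, 1 UMI was shared between classes in proportion to their totals. Pooled ratios are Mantel-Haenszel ratios over tumors, and at full depth over tumors and 10 bins of depth. Genes were ranked if they had at least 100 UMIs in the 6 tumors, or, for the ratio of Tgrp to the individual tumors, in all 7 libraries together. The exact two-sided sign-flip test over 6 tumors was computed in numpy 2.4.6 under Python 3.11.15, and its smallest p is 0.03125. A Benjamini-Hochberg adjustment over the members was planned for it but is not given, so each exact p stands unadjusted. The members were also chosen with results known. Replicates are separate tumors. Both sums of a pair come from 1 tumor, so the tumor was the block of the edgeR 4.0.16 fit (R 4.3.3; TMM, filterByExpr, quasi-likelihood, adjusted p under 0.05), with DESeq2 1.42.0 as an alternative. The fits planned for svp-positive cells, and for svp-positive against piwi-positive cells, were not run, since thinning left 1, 0, 1, 0, 0 and 0 svp-positive cells in Tind1 to Tind6. The fits for sbb, mgl, CG34232 and CG9021 and the depth-matched piwi fit were added after this was seen. Named are all members, the 10 largest rises and 5 largest falls with an adjusted p under 0.05 and 1 direction in every tumor, called genes of the members' own lists, the 5 genes most like Ama and piwi in Delta-positive cells, and Ldh, esg and Ras85D; other genes were chosen after their values were seen. On simulated counts, the fit for sbb recovered 75.9% of genes changed by a log2 of 1 among 2772 genes, that for mgl 33.3% among 1779, and that for piwi 11.9% among 1394.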

Additional observations from a re-analysis of the deposited data

Results flagged for a closer look

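The CPM levels of the members and their log2 ratios by comparison, 43 groups of tumors in all, were checked for a tumor far from the others. By Dixon's criterion 5 stood out, all of them log2 ratios, where chance alone gives about 1 in 20. In Delta-positive cells, Tind3 was far below the other tumors for sbb (log2 ratio −4.90) and for mgl (−2.84), and its class there held 5 cells. In enterocyte-marker cells, Tind3 was again far below for sbb (−5.14), with 0 UMIs in 47 cells. In esg-positive cells outside the cell cycle, Tind6 was far below for sbb (−3.94), in a class of 4 cells. In dividing cells, Tind6 was far above for Ama (4.67).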

How the results depend on the processing

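All alternatives kept the 7 members other than svp above a pooled ratio of 1 in Delta-positive cells, and in dividing cells 6 to 7 were above it when 1 tumor was left out. Leaving out 1 tumor gave 4 to 6 members below 0 in every tumor in Ldh-positive cells (4 with all tumors), 1 to 4 on 1 side in enterocyte-marker cells (1 with all) and 0 to 1 in esg-positive cells (0 with all). With 5 tumors the test cannot pass its threshold, so those are directions only. In Ldh-positive cells, 2 members remained at 600 UMIs and 2 under a 30% mitochondrial limit. In enterocyte-marker cells there were 3 at 200 UMIs, 0 at 600 UMIs, 3 with another seed, 2 without Tind5 cells that share a barcode with Tind4, 3 without the 5% deepest cells and 3 under the 30% limit. In esg-positive cells there was 1 without the 5% deepest cells. Member levels moved by less than the spread between tumors. The cause of each shift was not tested.

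The counts of called genes were less stable, given here in the order piwi, sbb, mgl, CG34232 and CG9021 (140, 180, 65, 99 and 82 in the report). Without the replicate block, that is without pairing both sums of a tumor, edgeR called 41, 0, 0, 0 and 8, with 176, 145, 129, 196 and 171 at an unadjusted p under 0.05. DESeq2 called 28, 59, 6, 27 and 2, of which 6, 9, 0, 2 and 0 were higher. No filter on low counts gave 277, 232, 149, 183 and 158. Summing thinned UMIs gave 163, 40, 12, 31 and 35. Thinning to 200 UMIs gave 103, 124, 124, 52 and 44, thinning to 600 gave 167, 325, 99, 196 and 150, and another seed 119, 262, 149, 71 and 246. The 30% limit gave 178, 365, 92, 136 and 108, dropping the 5% deepest cells 155, 247, 33, 180 and 204, and dropping the shared Tind5 barcodes 122, 201, 163, 122 and 108. Tgrp added as a seventh library gave 210, 421, 226, 263 and 205. Leaving out 1 tumor gave 47 to 147, 78 to 197, 21 to 76, 29 to 111 and 22 to 143. The fits for svp-positive cells were not run. Depth leaves some classes very small, such as the piwi-positive cells of Tind2 (1), Tind3 (2) and Tind5 (2).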
